A study of Arabis alpina with 12 samples.

Results

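The genes described here are the cytochrome P450 genes of Arabis alpina, a perennial relative of Arabidopsis thaliana, measured by RNA sequencing in its lateral buds. They are the genes of the 4 deposited comparison tables whose annotation name or description holds "cytochrome P450" or a CYP number in brackets, with 1 gene, allene oxide synthase, taken out. The rule found 34 genes, of 3884 that the authors listed in at least 1 comparison and 19722 in the count table. Every one of the 34 was thus listed as changed on these same libraries (an absolute log2 fold change above 1 and an adjusted p under 0.05), so the number of them that changed, and the direction in the comparison that listed them, is not independent evidence. They carry the names of their closest A. thaliana genes as the deposited tables give them.

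The study set buds of the V3 zone, where buds grow out, against buds of the V2 zone, where buds are dormant, after a long cold period. All plants were of the ecotype Pajares and had grown for 8 weeks in long days before 12 weeks of vernalization at 4 °C. The 4 groups were V3 buds at 5 d, taken 5 days after the return to long days at 20 °C, V2 buds at 5 d from the same point, V3 buds at 0 d, taken when the cold ended, and V2 buds at 0 d. Each group had 3 libraries, which the labels call biological replicates; the labels do not say how many plants or buds went into a library.

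Cytochrome P450s are heme enzymes. Most, though not all, split molecular oxygen and put an oxygen atom into a substrate, with electrons passed on by a reductase or a cytochrome b5. Plants have large P450 families that make and break hormones, build the precursors of lignin, cutin and wax, and make defence compounds such as the glucosinolates of the cabbage family. Some P450s inactivate hormones, among them gibberellins, brassinosteroids and jasmonates, which act on growth and defence in shoots.

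Libraries held 12252622 to 22586938 reads, as recovered from the normalized counts. Many zeros in the deposited count table were contradicted by the FPKM (fragments scaled by gene length and library size, given for listed genes only) or by the other libraries of the group; these were left out library by library, and they made up 33 of the 408 member values, in 11 members. V2 0 d replicate 3, the library with the fewest reads, held 6553 such zeros over all genes, against 886 to 1224 in the other 11. V3 0 d replicate 1 stood apart among the members: it had the lowest FPKM of its group in 29 of 34 and the lowest of all 12 libraries in 20. V2 5 d replicate 3 was lowest of its group in 21.

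Similar P450 copies can share reads, and the authors' counting may have split them. Sequences were not compared here, so whether this touches related members was not tested. Such members are CYP79B2 and CYP79B3, CYP94B1 and CYP94B3, CYP71B17 and CYP71B19, and CYP81D8 and CYP81F3, whose locus tags adjoin. These are whole buds, so fewer cells of a type and less RNA per cell cannot be told apart. Levels below are FPKM, which are scaled by gene length. Fold changes and adjusted p are, unless said otherwise, from limma on log2(normalized count + 1) with Benjamini-Hochberg adjustment over all genes tested, and a gene is called when the adjusted p is under 0.05.

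Over the 34 genes together, the summed FPKM was 827 to 941 in V3 buds at 5 d, 482 to 611 in V2 buds at 5 d, 148 to 251 in V3 buds at 0 d and 257 to 350 in V2 buds at 0 d. The V3 buds at 5 d were thus above all other libraries, and the V3 buds at 0 d were below all others, with no overlap between any of the 4 groups. The glucosinolate genes and CYP74B2 carried much of this: in V3 buds at 5 d the 7 glucosinolate genes summed to 279 to 429 FPKM and CYP74B2 alone had 134 to 142 FPKM. In V2 buds at 5 d the same genes had 147 to 223 FPKM and 16.3 to 32.1 FPKM.

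**Figure D1:**
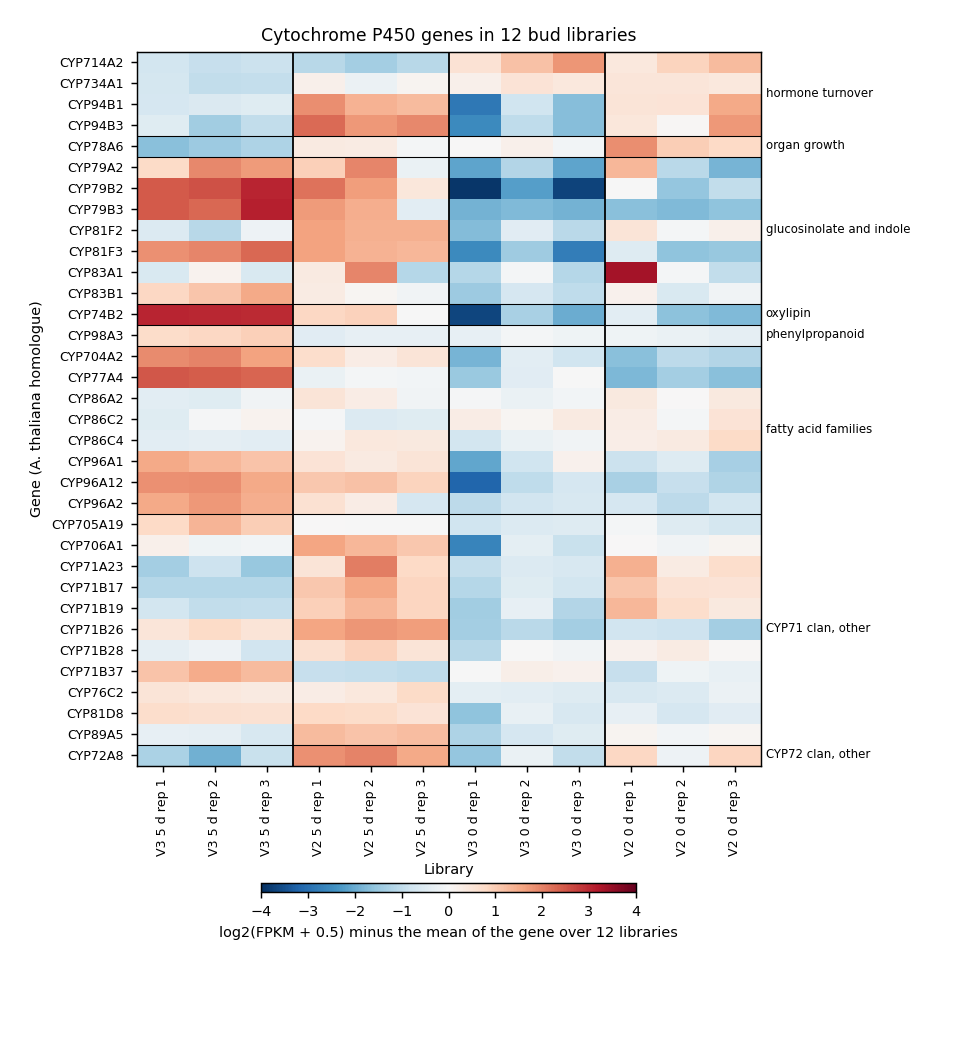
Each row is a P450 gene and each column a library; colour is log2(FPKM + 0.5) minus the gene's mean over the 12 libraries, red above it and blue below it. CYP74B2, CYP79B2, CYP79B3 and CYP77A4 are darkest red in V3 buds at 5 d, CYP94B1 and CYP94B3 are red in V2 buds at 5 d, and V3 0 d replicate 1 is the bluest column, lowest of its group in 29 of 34 genes.

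At 5 d, V3 buds differed from V2 buds in 19 of 30 P450 genes tested, 6 higher and 13 lower in V3. The same call was made for 36.1% of all genes tested (16.2% higher, 19.9% lower) and for 59.0% of the listed genes that were tested (26.2% higher, 32.7% lower), so the share of P450 genes called, 63.3%, was near that of listed genes. The median log2 fold change of the 30 genes was -0.11, against -0.04 over all genes tested and -0.20 over the listed ones. The 6 genes higher in V3 were CYP83B1, CYP74B2, CYP98A3, CYP77A4, CYP705A19 and CYP71B37. On FPKM, an alternative added after seeing the data and fitted over the listed genes, 24 of 34 were called, 9 higher and 15 lower, with 67.2% of listed genes called, and the FPKM of the zones did not overlap in 29 of 34, against 75.3% of listed genes.

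At 0 d, V3 buds were lower than V2 buds in 7 of 31 P450 genes tested and higher in none by limma. Over all genes tested 4.38% were called (1.13% higher, 3.25% lower), and 13.1% of the listed ones (3.0% higher, 10.1% lower). The 7 were CYP94B1, CYP94B3, CYP78A6, CYP86C4, CYP71A23, CYP71B17 and CYP71B19, and all 7 were also lower in V3 at 5 d. The median log2 fold change was -1.06, against -0.03 over all genes tested and -0.36 over the listed ones. The number called depended on single libraries: 4 genes were called without V2 0 d replicate 1, 2 without V2 0 d replicate 3, 4 (1 of them higher) without V3 0 d replicate 1, 11 without V3 0 d replicate 2 and 3 without V3 0 d replicate 3. On FPKM 16 of 34 were called, 2 higher and 14 lower, with 33.8% of listed genes called, and the zones did not overlap in 17 of 34, against 46.5% of listed genes.

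**Figure D2:**
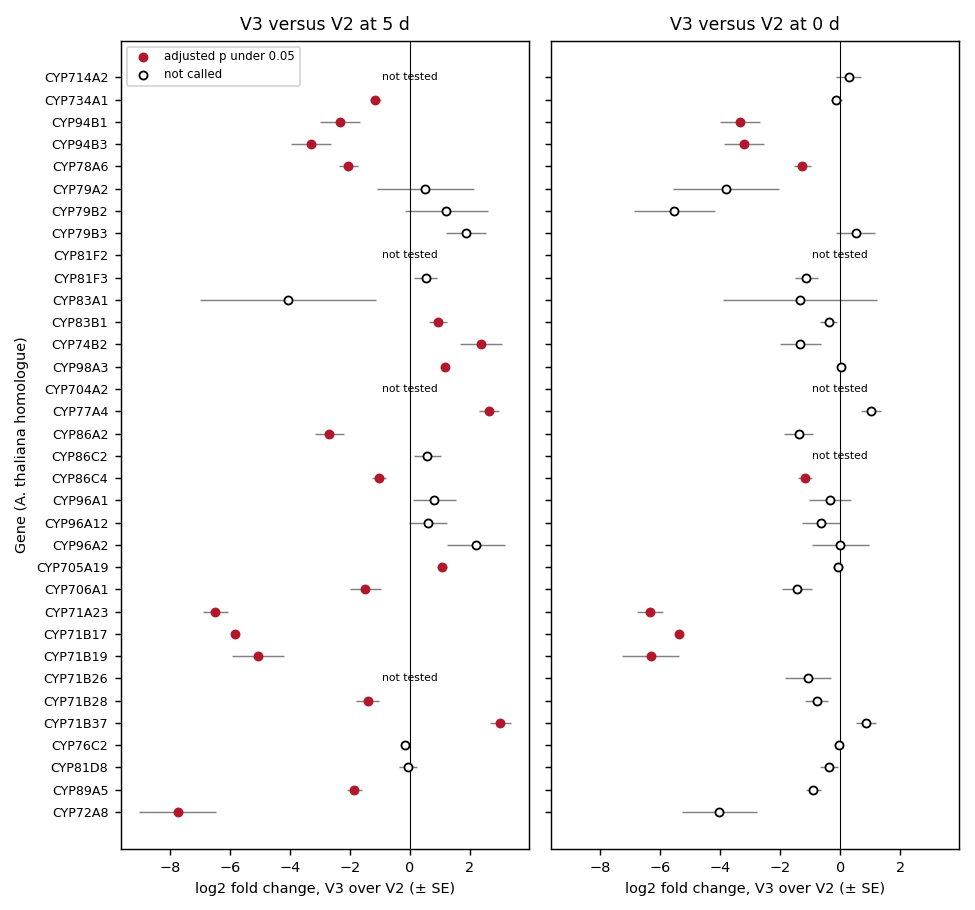
Points are log2 fold changes of V3 over V2 buds on the log2(normalized count + 1) scale with their standard errors, at 5 d on the left and at 0 d on the right; filled red points passed an adjusted p of 0.05. The 6 red points above 0 stand in the 5 d panel, and all 7 red points of the 0 d panel lie below 0; for the genes listed at 0 in V3 buds the point is no bound on the fold.

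Between 0 d and 5 d, 17 of 29 P450 genes tested changed in V3 buds, 15 higher and 2 lower at 5 d, with 24.3% of all genes tested (13.4% higher, 10.9% lower) and 49.2% of listed genes (34.2% higher, 15.0% lower) called. In V2 buds 11 of 31 changed, 10 higher and 1 lower, with 23.9% of all genes tested (12.6% higher, 11.3% lower) and 46.5% of listed genes (29.3% higher, 17.2% lower) called. Without V2 5 d replicate 1 the V2 count was 7. The median log2 fold change was 1.22 in V3 (1.21 with genes listed at 0 set to their bound), against -0.02 over all genes tested and 0.30 over the listed ones, and 1.25 in V2, against 0.00 and 0.44. Of the members, 6 were higher at 5 d in both zones: CYP81F3, CYP79B3, CYP77A4, CYP96A12, CYP76C2 and CYP81D8. On FPKM 22 of 34 were called in V3, 19 of them higher, and 21 in V2, 17 of them higher, with 55.4% of listed genes called in V3 and 54.0% in V2. The FPKM of the times did not overlap in 22 of 34 in V3, against 61.5% of listed genes, and in 21 of 34 in V2, against 64.5%.

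The change over time itself differed between the zones in 5 of 29 genes tested, 4 higher and 1 lower, with 7.02% of all genes tested (4.01% higher, 3.01% lower) and 18.5% of listed genes (10.9% higher, 7.59% lower) called. It was larger in V3 for CYP74B2, CYP71B37, CYP705A19 and CYP98A3, and it was more negative in V3 for CYP734A1. The count was 8 without V3 0 d replicate 1, 3 without V2 0 d replicate 1, V3 0 d replicate 3, any V2 5 d replicate or V3 5 d replicate 1, 2 without V2 0 d replicate 3 or V3 5 d replicate 3, and 1 without V3 5 d replicate 2. On FPKM 14 of 34 were called, 10 higher and 4 lower, with 30.9% of listed genes called.

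**Figure D3:**
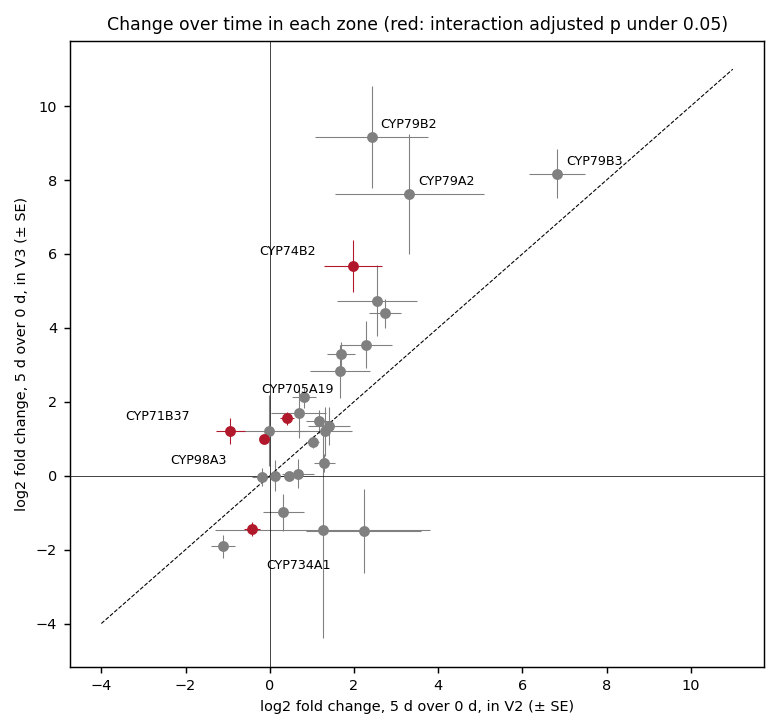
Each point is a P450 gene; the horizontal axis is its log2 fold change of 5 d over 0 d in V2 buds and the vertical axis that in V3 buds, with standard errors, and the dashed line marks equal change. Red points passed the test of the difference between zones: CYP74B2 (5.67 in V3, 1.98 in V2), CYP705A19, CYP71B37 and CYP98A3 lie above the line and CYP734A1 below it.

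Of 4 hormone-inactivating P450s, 3 could be tested on counts between the zones at 5 d. All 3 were lower in V3, at a median log2 fold change of -2.35, with 19.9% of all genes tested and 32.7% of listed genes lower. The authors had listed all 3 in this same comparison, so this count and direction are not independent evidence. The fourth, CYP714A2, was not called on FPKM, where its V3 libraries lay above its V2 libraries, and the median of all 4 on FPKM was -1.49. The lists of hormone P450s held 25 CYP names, and 4 of these were members, 1 for gibberellins, 1 for brassinosteroids and 2 for jasmonates. None of the 4 abscisic acid hydroxylases (CYP707A), the 2 cytokinin hydroxylases (CYP735A) or the strigolactone enzyme CYP711A1 was among the members.

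CYP94B3 (Aa_G744770) and CYP94B1 (Aa_G75210) hydroxylate jasmonoyl-isoleucine, the active jasmonate, and so inactivate it. CYP94B3 had 2.63, 1.14 and 1.70 FPKM in V3 buds at 5 d, against 20.4, 14 and 15.8 FPKM in V2 buds at 5 d. At 0 d CYP94B3 had 0.247, 1.64 and 0.825 FPKM in V3 buds, against 5.39, 3.94 and 13.8 FPKM in V2 buds. All V2 libraries were above all V3 libraries at both times. The log2 fold change was -3.30 ± 0.66 (SE) at 5 d with an adjusted p of 0.00445, and -3.20 ± 0.65 at 0 d with an adjusted p of 0.0276. The 0 d call ended without V2 0 d replicate 1, V2 0 d replicate 3, V3 0 d replicate 1 or V3 0 d replicate 3, with adjusted p of 0.0631 to 0.0867.

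CYP94B1 had 2.97, 3.16 and 3.41 FPKM in V3 buds at 5 d, against 19.3, 13.8 and 12.8 FPKM in V2 buds at 5 d. Its levels at 0 d were 0.251, 2.64 and 1.18 FPKM in V3 buds, against 7.31, 7.43 and 15 FPKM in V2 buds. Again no V3 library reached the lowest V2 library of its time. The log2 fold change was -2.35 ± 0.67 at 5 d (adjusted p 0.0218) and -3.34 ± 0.66 at 0 d (adjusted p 0.0232). The 5 d call ended without V2 5 d replicate 1 or 2 or any V3 5 d replicate (adjusted p 0.0505 to 0.0703), and the 0 d call without V2 0 d replicate 1, V2 0 d replicate 3 or V3 0 d replicate 3 (0.0598 to 0.0848).

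Of 6 jasmonate synthesis and conjugation loci looked up, allene oxide synthase among them, 3 had a gene that the authors listed. LOX2, the lipoxygenase that feeds jasmonate synthesis, had 994 ± 88.8 FPKM in V3 buds at 5 d and 73.8 ± 28.8 FPKM in V2 buds at 5 d (SD, n = 3 each), and JAR1, which conjugates jasmonate to isoleucine, had 7.82 ± 0.933 and 13.0 ± 1.21 FPKM in the same groups. LOX2 was higher in V3 at 5 d (log2 fold change 3.79, adjusted p 0.000311) and JAR1 lower (-1.10, adjusted p 0.00626). Allene oxide synthase, left out of the members, was not called between the zones at 5 d (0.32, adjusted p 0.409).

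CYP734A1 (Aa_G463320), known as BAS1, inactivates brassinosteroids by hydroxylation. It had 8.04, 6.53 and 6.77 FPKM in V3 buds at 5 d, against 15.5, 11.3 and 14.5 FPKM in V2 buds at 5 d. CYP734A1 had 15.7, 20.1 and 18.3 FPKM in V3 buds at 0 d and 19.2, 18.8 and 18.1 FPKM in V2 buds at 0 d, where the zones overlapped. V3 buds at 5 d were thus below the other 9 libraries. The gene fell in V3 (5 d over 0 d, -1.44 ± 0.18, adjusted p 0.000587) and was lower in V3 than in V2 at 5 d (-1.16 ± 0.18, adjusted p 0.00138), while in V2 the change over time was -0.42 ± 0.18 (adjusted p 0.131). The difference between these changes was -1.03 ± 0.26 (adjusted p 0.0427). That call ended without any of 9 libraries, all but V3 0 d replicate 1, V2 5 d replicate 2 and V3 5 d replicate 1, with adjusted p of 0.0579 to 0.0977.

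CYP714A2 (Aa_G169000) acts in gibberellin deactivation. It had 1.57, 1.34 and 1.42 FPKM in V3 buds at 5 d, against 4.70, 7.40 and 11.4 FPKM in V3 buds at 0 d. In V2 buds it had 1.11, 0.860 and 1.10 FPKM at 5 d, against 4.17, 5.91 and 7.81 FPKM at 0 d. Every 0 d library was above every 5 d library. At 5 d the V3 libraries were above the V2 libraries, with a log2 fold change on FPKM of 0.36 ± 0.29 (adjusted p 0.302). The count table lists it at 0 in all 6 libraries at 5 d, which its FPKM contradicts, so limma on counts gave no test. On FPKM it fell by 2.02 ± 0.29 on the log2 scale in V3 (adjusted p 0.000147) and by 2.05 ± 0.29 in V2 (adjusted p 0.000325, both over listed genes). The authors' deposited table gives -10.62 and -10.27 for these comparisons, larger than the FPKM show.

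Of 11 other gibberellin loci 2 were listed by the authors as changed on these same libraries, so their counts are not independent evidence. Both were lower in V3 at 5 d, as were 19.9% of all genes tested and 32.7% of listed genes. GA2OX2, a gibberellin-inactivating dioxygenase and not a P450, had 17.2 ± 2.5 FPKM in V3 buds at 5 d and 244 ± 28.7 FPKM in V2 buds at 5 d (log2 fold change -4.06, adjusted p 0.000505). GA20OX2, a synthesis enzyme, had 0.308 ± 0.19 and 1.87 ± 0.271 FPKM in these groups. On counts its log2 fold change was -5.48 (adjusted p 2.23e-06), over 2 usable V2 libraries, a larger difference than these FPKM show.

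CYP78A6 (Aa_G332700) belongs to a family that promotes growth of seeds and organs in A. thaliana. It had 0.702, 0.872 and 1.12 FPKM in V3 buds at 5 d, 4.39, 4.22 and 3.08 FPKM in V2 buds at 5 d, 3.34, 3.83 and 3.03 FPKM in V3 buds at 0 d and 13.4, 7.07 and 6.10 FPKM in V2 buds at 0 d. It was lower in V3 than in V2 at both times, and lower at 5 d than at 0 d in both zones, with no overlap in any of the 4 comparisons. V3 over V2 was -2.06 ± 0.32 at 5 d (adjusted p 0.00161, over the 2 usable V3 libraries) and -1.27 ± 0.28 at 0 d (adjusted p 0.0435); 5 d over 0 d was -1.91 ± 0.32 in V3 (adjusted p 0.00315) and -1.11 ± 0.28 in V2 (adjusted p 0.0228). The 0 d zone call ended without any of 8 libraries, all but V2 0 d replicate 2, V3 0 d replicate 2 and V3 5 d replicates 1 and 3 (adjusted p 0.0538 to 0.111), and the V2 call without V2 5 d replicate 1 or 3 (0.0644 and 0.0635). It was the only member that was lower at 5 d in V2 by limma on counts.

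Markers of senescing leaves were also lower in V3. Of 3 such markers 2 were listed, SAG21 and NAP, and their summed FPKM was 9.34 to 25.4 in V3 buds at 5 d, 164 to 222 in V2 buds at 5 d, 1.73 to 12.0 in V3 buds at 0 d and 45.8 to 66.5 in V2 buds at 0 d. Their part in the P450 results was not tested.

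Glucosinolate and indole P450s gave 5 of the 15 genes higher at 5 d in V3. Of 15 CYP names on that list 7 were members. In V3 buds 5 of the 6 tested were higher at 5 d than at 0 d and none lower. In that comparison 13.4% of all genes tested and 34.2% of listed genes were higher. The authors had listed all 5 in this same comparison, so their number and direction are not independent evidence. The median log2 fold change of the 6 was 6.01 on counts, which includes genes listed at or near 0 counts at 0 d, and that of all 7 was 3.27 on FPKM. In V2 buds 3 of 7 were higher and none lower, with 12.6% of all genes tested and 29.3% of listed genes higher, and the median was 2.42 on counts and 1.42 on FPKM. Between the zones 1 of 6 was called at 5 d and none of 6 at 0 d, and none of 6 was called for the difference between the changes over time by limma on counts, while on FPKM CYP79B2, CYP79B3, CYP81F3 and CYP83B1 were.

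CYP79B2 (Aa_G486300) and CYP79B3 (Aa_G407280) convert tryptophan to indole-3-acetaldoxime, the entry to indole glucosinolates and camalexin. CYP79B3 had 9.70, 8.75 and 15.6 FPKM in V3 buds at 5 d, against 0, 0.0487 and 0 FPKM in V3 buds at 0 d. In V2 buds it had 5.56, 4.62 and 0.895 FPKM at 5 d, against 0.0910, 0.0499 and 0.109 FPKM at 0 d. The 0 d libraries were all near 0, and every 5 d library was above them. It was higher at 5 d in V3 (adjusted p 3.3e-05), where 1310 reads at 5 d stood against 2 reads at 0 d, a ratio of 665.8 after scaling with a 95% exact interval of 184 to 5503 that covers counting error only. In V2 it was higher too: the 3 libraries at 0 d were listed at 0 counts, and the level at 5 d was at least 48.0-fold higher on the counts (a floor of 3 counts per library; adjusted p 0.000109). Its FPKM at 0 d were not 0, and the ratio of mean FPKM was 44.2, below that bound. V3 over V2 at 5 d was 1.86 ± 0.66 (adjusted p 0.0532).

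CYP79B2, which lies outside the rule for named genes and is given because it is the paralogue, had 48.0, 51.5 and 73.2 FPKM in V3 buds at 5 d, against 0.103, 1.42 and 0.184 FPKM in V3 buds at 0 d. In V2 buds it had 39.3, 27.8 and 11.7 FPKM at 5 d, against 8.27, 2.52 and 4.03 FPKM at 0 d. All 0 d libraries lay below all 5 d libraries of their zone. CYP79B2 rose in V3 (9.16 ± 1.38, adjusted p 0.00139), and on FPKM by 5.95 ± 0.54 on the log2 scale (adjusted p 7.58e-06). In V2 the change was 2.42 ± 1.35 on counts (adjusted p 0.222) and 2.28 ± 0.54 on FPKM (adjusted p 0.00515).

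CYP83B1 (Aa_G127450) oxidizes the aldoxime made by CYP79B enzymes and had the highest mean FPKM of the 34 genes in V3 buds at 5 d. It had 140.0, 170.2 and 224 FPKM in V3 buds at 5 d and 99.0, 83.8 and 71.7 FPKM in V2 buds at 5 d. Its levels at 0 d were 28.6, 48.9 and 38.6 FPKM in V3 buds and 89.7, 51.8 and 71.0 FPKM in V2 buds. V3 buds were thus above V2 buds at 5 d and below them at 0 d, with no overlap on FPKM at either time. CYP83B1 rose in V3 (2.12 ± 0.29, adjusted p 0.000875), and V3 was higher than V2 at 5 d (0.93 ± 0.29, adjusted p 0.0331). The zone call ended without V2 5 d replicate 2 or 3 or V3 5 d replicate 2 or 3 (adjusted p 0.0692 to 0.113). In V2 buds at 0 d each FPKM stood for 24.7 normalized counts, against 32.9 to 36.2 in the other groups, and the zone difference at 0 d was -0.38 ± 0.29 on counts (adjusted p 0.439) and -0.86 ± 0.25 on FPKM (adjusted p 0.0261).

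CYP81F3 (Aa_G672590) modifies the indole ring of indole glucosinolates. It had 76.5, 83.5 and 107 FPKM in V3 buds at 5 d, against 3.23, 7.54 and 2.72 FPKM in V3 buds at 0 d. In V2 buds it had 66.1, 56.5 and 54.2 FPKM at 5 d, against 14.7, 6.60 and 7.04 FPKM at 0 d. The 5 d libraries were at least 54.2 FPKM and the 0 d libraries at most 14.7 FPKM. The gene rose in V3 by 4.39 ± 0.38 on the log2 scale (adjusted p 5.29e-05) and in V2 by 2.74 ± 0.38 (adjusted p 0.00109).

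CYP81F2 (Aa_G69090), of the same family and outside the rule for named genes, was lower in V3 than in V2. It had 1.37, 0.780 and 1.93 FPKM in V3 buds at 5 d, against 7.97, 6.98 and 6.92 FPKM in V2 buds at 5 d, with no overlap. Zeros in V3 that the FPKM contradict left no count test between the zones, and on FPKM it was lower in V3 at 5 d (-2.11 ± 0.32, adjusted p 0.000208) and at 0 d (-1.31 ± 0.32, adjusted p 0.0158). In V2 it rose (2.38 ± 0.43, adjusted p 0.0133), a call that ended without V2 5 d replicate 1 (adjusted p 0.05).

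CYP79A2 and CYP83A1, also outside the rule for named genes, varied widely within V2 groups. CYP79A2, which acts on phenylalanine, had 3.19, 7.73 and 6.59 FPKM in V3 buds at 5 d, against 0, 0.462 and 0 FPKM in V3 buds at 0 d. On the counts, listed at 0 in V3 at 0 d, it was at least 72.4-fold higher at 5 d (adjusted p 0.0102). The ratio of mean FPKM was 37.9, below that bound. In V2 buds it had 3.70, 7.85 and 1.32 FPKM at 5 d and 4.92, 0.521 and 0.104 FPKM at 0 d, which overlap. CYP83A1, which handles aliphatic aldoximes, had 10.5 FPKM in V2 0 d replicate 1, 3.78 FPKM in V2 5 d replicate 2 and under 1 FPKM in the other 10 libraries, and it passed no test by limma on counts or on FPKM. The authors' deposited table lists CYP83A1 at -22.33 for V3 over V2 at 5 d and -19.27 for 5 d over 0 d in V3.

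**Figure D4:**
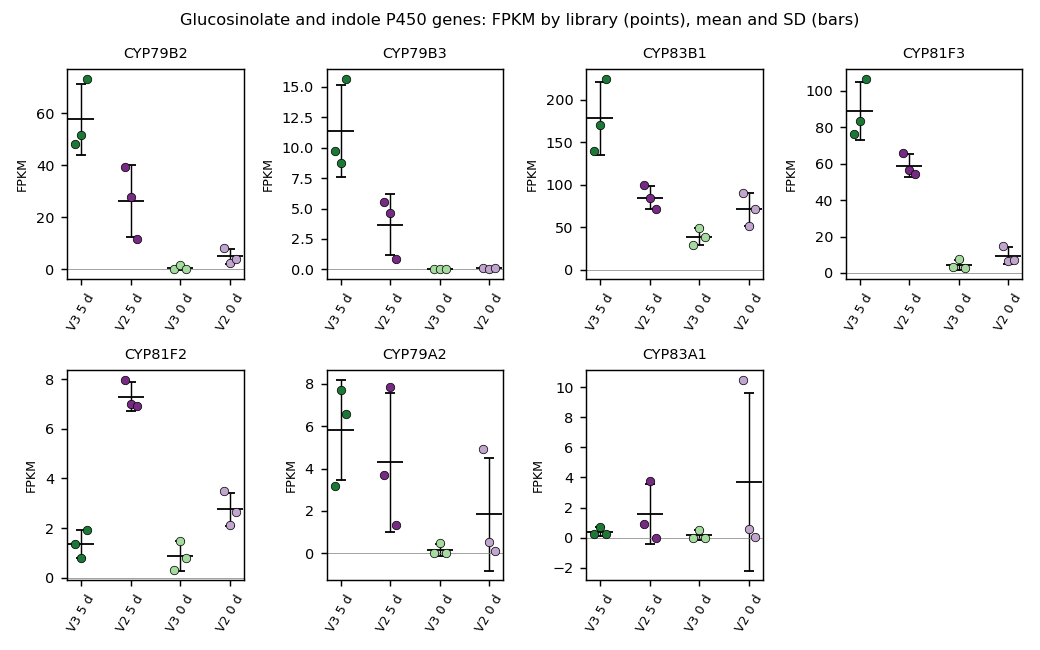
Points are FPKM of the 7 glucosinolate P450 genes in each library, with the group mean and SD (n = 3), and each panel has its own linear axis. CYP79B2, CYP79B3, CYP83B1 and CYP81F3 are highest in V3 buds at 5 d, CYP81F2 is highest in V2 buds at 5 d, and the CYP83A1 mean of V2 buds at 0 d rests on 1 library at 10.5 FPKM.

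Of 13 other glucosinolate loci looked up, 6 had a gene that the authors listed. Each was thus listed as changed on these same libraries, so these counts are not independent evidence. All 6 were higher at 5 d in V3, with a median log2 fold change of 1.85. In that comparison 13.4% of all genes tested and 34.2% of listed genes were higher. Of the 6, 4 were higher in V3 than in V2 at 5 d (16.2% and 26.2%) and 1 was higher at 5 d in V2 (12.6% and 29.3%). SOT16, a sulfotransferase of indole glucosinolate synthesis, had 23.1 ± 8.18 FPKM in V3 buds at 5 d and 4.53 ± 1.21 FPKM in V2 buds at 5 d (2.19, adjusted p 0.00874), against 0.712 ± 0.38 FPKM in V3 buds at 0 d. MYB34, a transcription factor of the indole branch, had 30.4 ± 5.49 FPKM in V3 buds at 5 d and 11.7 ± 3.57 FPKM in V2 buds at 5 d (1.03, adjusted p 0.0431).

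CYP74B2 (Aa_G496650), the hydroperoxide lyase that turns fatty acid hydroperoxides into the short aldehydes of green leaf scent, had the largest difference in time course between the zones among the 5 genes called for it. It had 142, 138 and 134 FPKM in V3 buds at 5 d and 29.8, 32.1 and 16.3 FPKM in V2 buds at 5 d. Its levels at 0 d were 0.855, 6.52 and 3.81 FPKM in V3 buds and 12.3, 4.97 and 4.50 FPKM in V2 buds. The V3 buds at 5 d stood above all 9 other libraries, and the zones overlapped at 0 d. In V3 it rose by 5.67 ± 0.70 on the log2 scale (adjusted p 0.000461), and in V2 the change was 1.98 ± 0.68 (adjusted p 0.0609). The change in V3 exceeded that in V2 by 3.69 ± 0.94 (adjusted p 0.0419). That call ended without any of 10 libraries, all but V3 0 d replicates 1 and 2 (adjusted p 0.0523 to 0.0867). V3 over V2 at 5 d was 2.36 ± 0.70 (adjusted p 0.0252), which ended without V2 5 d replicate 1 or 3 or any V3 5 d replicate (0.0507 to 0.0804).

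CYP98A3 (Aa_G144150), which hydroxylates coumaroyl esters on the way to lignin, was higher in V3 buds at 5 d than in any other group. It had 57.1, 61.2 and 66.6 FPKM in V3 buds at 5 d, 24.7, 26.9 and 27.2 FPKM in V2 buds at 5 d, 27.3, 32.2 and 30.3 FPKM in V3 buds at 0 d and 30.2, 28.3 and 26.5 FPKM in V2 buds at 0 d. The other 9 libraries spanned 24.7 to 32.2 FPKM, well below V3 buds at 5 d. V3 over V2 was 1.15 ± 0.09 at 5 d (adjusted p 3.85e-05) and 0.03 ± 0.10 at 0 d (adjusted p 0.903), and 5 d over 0 d was 1.00 ± 0.09 in V3 (adjusted p 7.44e-05) and -0.12 ± 0.10 in V2 (adjusted p 0.376). The difference between the changes over time was 1.13 ± 0.14 (adjusted p 0.00104), a call that no left-out library ended.

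Of 18 loci of the phenylpropanoid and flavonoid pathway 10 were listed by the authors as changed on these same libraries, so their counts are not independent evidence. At 5 d 9 of these were higher than at 0 d in V3 (13.4% of all genes tested and 34.2% of listed genes). In V2 7 were higher at 5 d (12.6% and 29.3%) and 1 lower (11.3% and 17.2%). Between the zones at 5 d 3 were higher in V3 (16.2% and 26.2%). CCoAOMT1, a methyltransferase of lignin precursors, had 262 ± 10.6 FPKM in V3 buds at 5 d and 113 ± 9.87 FPKM in V2 buds at 5 d (1.14, adjusted p 2.83e-05). Of 8 markers of vascular tissue 3 were listed, XCP1 and XCP2 of xylem and APL of phloem, and they did not move as a set. XCP1 was higher in V3 at 5 d (2.23, adjusted p 0.00214). XCP2 was not called on counts (1.15, adjusted p 0.379, over 2 usable V2 libraries). Its FPKM were nevertheless higher in V3 with no overlap: 7.40, 7.53 and 7.98 in V3 buds at 5 d, against 3.43, 3.46 and 1.29 in V2 buds at 5 d. APL, with no count test, had 2.11, 1.97 and 1.25 FPKM in V3 buds at 5 d, against 3.63, 2.09 and 2.95 FPKM in V2 buds at 5 d. The summed FPKM of the 3, carried at 5 d in V3 by XCP1 and XCP2, was 21.8 to 23.0 in V3 buds at 5 d, 5.6 to 11.9 in V2 buds at 5 d, 0.638 to 1.87 in V3 buds at 0 d and 1.74 to 4.43 in V2 buds at 0 d. Their part in the CYP98A3 result was not tested.

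P450s of families that act on fatty acids, grouped after their values were seen, held 8 members. As members they were all listed on these same libraries, so their counts are not independent evidence. In V3 buds 4 of 6 tested were higher at 5 d than at 0 d and none lower, against 13.4% of all genes tested and 34.2% of listed genes higher. The median log2 fold change was 3.06 on counts and 2.31 on FPKM, the FPKM value over all 8. In V2 buds 2 of 6 were higher and none lower, against 12.6% of all genes tested and 29.3% of listed genes higher, with a median of 1.68 on counts and 1.14 on FPKM. Between the zones at 5 d 1 of 7 was higher in V3 and 2 lower, against 16.2% of all genes tested higher and 19.9% lower.

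CYP77A4 (Aa_G73330), a fatty acid epoxidase, was listed by the authors in all 4 comparisons. It had 99.8, 96.2 and 89.7 FPKM in V3 buds at 5 d and 14.6, 16.6 and 16.4 FPKM in V2 buds at 5 d. Its levels at 0 d were 5.99, 12.8 and 17.2 FPKM in V3 buds and 4.69, 6.55 and 5.18 FPKM in V2 buds. V3 buds at 5 d were above the other 9 libraries, and the zones overlapped at 0 d through V3 0 d replicate 1. CYP77A4 rose in V3 (3.28 ± 0.33, adjusted p 0.000132) and in V2 (1.70 ± 0.33, adjusted p 0.00602), and was higher in V3 at 5 d (2.62 ± 0.33, adjusted p 0.000445). The difference between the changes was 1.58 ± 0.45 (adjusted p 0.0629).

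CYP96A12 (Aa_G374910) and CYP96A1 (Aa_G288660) belong to a family that includes a wax alkane hydroxylase in A. thaliana. CYP96A12 had 47.8, 48.5 and 38.5 FPKM in V3 buds at 5 d, against 1.00, 6.25 and 7.98 FPKM in V3 buds at 0 d, and in V2 buds it had 28.0, 30.0 and 24.9 FPKM at 5 d, against 4.99, 6.69 and 5.38 FPKM at 0 d. All 5 d libraries were above all 0 d libraries. CYP96A12 rose in V3 (3.54 ± 0.64, adjusted p 0.00353) and in V2 (2.29 ± 0.62, adjusted p 0.0262), and the V2 call ended without any 1 of the 6 V2 libraries (adjusted p 0.0511 to 0.0734). CYP96A1 had 8.43, 7.37 and 6.37 FPKM in V3 buds at 5 d, against 0.241, 1.32 and 3.06 FPKM in V3 buds at 0 d. It rose in V3 (2.83 ± 0.72, adjusted p 0.0189), a call that ended without V3 5 d replicate 1 or 2 (0.0586 and 0.0533). In V2 buds CYP96A1 had 4.11, 3.54 and 4.00 FPKM at 5 d, against 1.24, 1.70 and 0.743 FPKM at 0 d. That change was not called on counts (1.67 ± 0.71, adjusted p 0.113) but was on FPKM (1.38 ± 0.45, adjusted p 0.0231). CYP96A2, outside the rule for named genes, rose in V3 as well (4.74 ± 0.96, adjusted p 0.0067), at 2.61 ± 0.31 FPKM in V3 buds at 5 d and 0.0922 ± 0.0839 FPKM in V3 buds at 0 d (SD, n = 3 each). Its change in V2 was not called on counts (2.56 ± 0.95, adjusted p 0.0776) but was on FPKM (0.89 ± 0.29, adjusted p 0.0218), where the times overlapped.

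CYP704A2 (Aa_G52110), also outside that rule, had 9 contradicted zeros among 12 libraries and no count test in any comparison. Its FPKM were 25.4, 27.1 and 20.5 in V3 buds at 5 d, 10.9, 8.00 and 9.39 in V2 buds at 5 d, 1.40, 4.65 and 3.51 in V3 buds at 0 d and 1.67, 2.86 and 2.61 in V2 buds at 0 d. The 5 d groups did not overlap with the 0 d groups or with each other. On FPKM it rose by 2.86 ± 0.33 on the log2 scale in V3 (adjusted p 2.97e-05) and by 1.80 ± 0.33 in V2 (adjusted p 0.00122). The authors' deposited table gives 24.36 and 24.24 for these comparisons.

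CYP86A2 (Aa_G299920), a fatty acid hydroxylase of cutin synthesis, was lower in V3 at 5 d, but by how much depended on the scale. It had 5.28, 4.99 and 6.46 FPKM in V3 buds at 5 d and 10.5, 8.92 and 6.5 FPKM in V2 buds at 5 d, where the lowest V2 library was just above the highest V3 library. On counts the difference was -2.69 ± 0.49 (adjusted p 0.00273) and on FPKM -0.57 ± 0.19 (adjusted p 0.0221). Each FPKM stood for 11.3 normalized counts in V3 buds at 5 d and 37.4 in V2 buds at 5 d, so the deposited counts and FPKM do not give the same ratio. CYP86C4 (Aa_G501010) was lower in V3 at both times: 1.16, 1.27 and 1.18 FPKM in V3 buds at 5 d, against 1.96, 2.49 and 2.47 FPKM in V2 buds at 5 d (-1.02 ± 0.23, adjusted p 0.00832). At 0 d the difference was -1.16 ± 0.24 (adjusted p 0.0294), a call that ended without V2 0 d replicate 3 or V3 0 d replicate 1 (0.0887 and 0.0848). CYP86C2, outside the rule for named genes, stayed at or below 1.02 FPKM in every library; the authors' deposited table gives it 6.01 for 5 d over 0 d in V2, while its FPKM fit gave the opposite sign (-0.62 ± 0.23, adjusted p 0.0370).

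Other cutin and wax loci were listed by the authors as changed for 4 of 11, on these same libraries, so their counts are not independent evidence. All 4 were higher at 5 d in V3 (13.4% of all genes tested and 34.2% of listed genes). Between the zones at 5 d 3 were higher in V3 (16.2% and 26.2%). GPAT6, a cutin acyltransferase, had 45.3 ± 6.55 FPKM in V3 buds at 5 d and 16.3 ± 1.54 FPKM in V2 buds at 5 d (1.40, adjusted p 0.0138). None of the 3 epidermal markers on the list was among the listed genes, so the level of that cell type was not analysed here.

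A further 11 members belong to the CYP71 clan and stand on no role list. They were grouped after values were seen, and all were listed on these same libraries, so their counts are not independent evidence. At 5 d 6 of 10 tested were lower in V3 and 2 higher, against 19.9% of all genes tested and 32.7% of listed genes lower. At 0 d 3 of 11 were lower and none higher, against 3.25% of all genes tested and 10.1% of listed genes lower. Over time 4 of 10 were higher at 5 d in V3 (13.4% of all genes tested, 34.2% of listed genes) and 5 of 11 in V2 (12.6% and 29.3%), and none was lower in either zone by limma on counts.

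Of these, 4 CYP71B genes with nearby locus tags differed in zone pattern. CYP71B17 (AALP_AA5G029100) and CYP71B19 (AALP_AA5G029200), outside the rule for named genes, were lower in V3 than in V2 at both times. CYP71B17 was listed at 0 FPKM in all 3 V3 libraries at 5 d, against 1.80, 2.71 and 1.46 FPKM in V2 buds at 5 d, and it had 0, 0.274 and 0.160 FPKM in V3 buds at 0 d, against 1.85, 1.13 and 1.11 FPKM in V2 buds at 0 d. Listed at 0 counts in every V3 library, it was at least 18.9-fold lower in V3 at 5 d and at least 13.9-fold lower at 0 d on the counts. The limma adjusted p was 2.01e-11 at 5 d and 6.44e-09 at 0 d, the latter over 2 usable V2 libraries. These test the log2 fold change and not the bounds, and libraries all at 0 add no spread to them. On FPKM the adjusted p was 2.24e-05 at 5 d and 0.00759 at 0 d. At 0 d the mean FPKM of CYP71B17 in V3 was 0.107 of that in V2, a smaller difference than the bound. CYP71B19 had 0.361, 0.224 and 0.251 FPKM in V3 buds at 5 d, against 2.31, 3.16 and 2.11 FPKM in V2 buds at 5 d (-5.07 ± 0.86, adjusted p 0.0026). On the counts it was called lower in V3 at 0 d (adjusted p 0.00869), where 2 usable V3 libraries were listed at 0. Those 2 alone give a bound of 27.8-fold. The bound does not cover V3 0 d replicate 2, left out because its 0.649 FPKM contradicted its 0. The lowest V2 library at 0 d had 1.40 FPKM. Over all libraries at 0 d, the mean FPKM of CYP71B19 in V3 was 0.133 of that in V2 (limma on FPKM, adjusted p 0.00768). For CYP71B17 the change in V2 over time was 0.46 ± 0.14 (adjusted p 0.0403). That call ended without any of V2 5 d replicates 1 to 3, V3 0 d replicates 1 to 3 or V3 5 d replicates 1 and 3 (0.0533 to 0.0878). Its SE comes from a spread shared by the 4 groups, to which the V3 libraries, all at 0 counts, add none. The change was not called on FPKM (adjusted p 0.158), where the times overlapped.

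CYP71B37 (Aa_G276750, AALP_AA5G030000) had 8.63, 11 and 9.34 FPKM in V3 buds at 5 d and 1.66, 1.63 and 1.51 FPKM in V2 buds at 5 d. Its levels at 0 d were 3.54, 4.30 and 4.13 FPKM in V3 buds and 1.65, 3.14 and 2.84 FPKM in V2 buds. V3 libraries were above V2 libraries at both times. V3 over V2 was 3.02 ± 0.34 at 5 d (adjusted p 0.000279) and 0.87 ± 0.34 at 0 d (adjusted p 0.151). It rose in V3 (1.21 ± 0.34, adjusted p 0.0296), a call that ended without any V3 0 d replicate or V3 5 d replicate 1 or 2 (0.0529 to 0.0939), and in V2 the change was -0.94 ± 0.34 (adjusted p 0.0722). The difference of 2.15 ± 0.48 (adjusted p 0.0257) ended without V2 0 d replicate 3, V3 0 d replicate 3 or V3 5 d replicate 1 or 2 (0.0522 to 0.0655).

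CYP71B26 (AALP_AA5G029400) had 1.29, 1.71 and 1.37 FPKM in V3 buds at 5 d and 3.39, 3.88 and 3.66 FPKM in V2 buds at 5 d, against at most 0.109 FPKM in V3 buds at 0 d and at most 0.255 FPKM in V2 buds at 0 d. It rose in V2 on counts (5.92 ± 0.77, adjusted p 0.00183) and in both zones on FPKM (1.87 ± 0.19 in V3, adjusted p 1.52e-05, and 2.67 ± 0.19 in V2, adjusted p 6.47e-06), and on FPKM it was lower in V3 than in V2 at 5 d (-1.08 ± 0.19, adjusted p 0.000487). CYP71A23, at 0.125, 0.407 and 0.0607 FPKM in V3 buds at 5 d against 1.78, 6.15 and 2.28 FPKM in V2 buds at 5 d, was listed at 0 counts in every V3 library, which puts it at least 34.9-fold lower in V3 at 5 d (adjusted p 1.01e-05) and 29.2-fold lower at 0 d (adjusted p 8.29e-06). Its mean FPKM in V3 was not 0 but 0.0581 of that in V2 at 5 d and 0.199 at 0 d, smaller differences than those bounds. CYP71B28, at 9.18 ± 1.85 FPKM in V3 buds at 5 d and 20.6 ± 3.03 FPKM in V2 buds at 5 d, was lower in V3 (-1.40 ± 0.39, adjusted p 0.019), a call that ended without V2 5 d replicate 2 or V3 5 d replicate 3 (0.0657 and 0.0661).

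**Figure D5:**
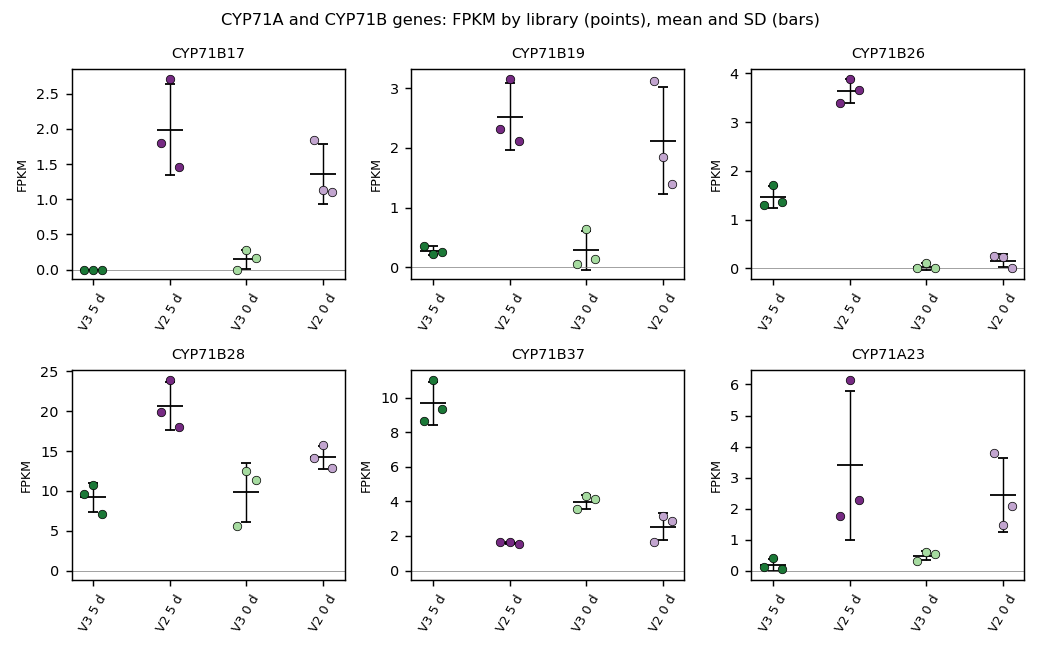
Points are FPKM of 6 CYP71 genes in each library, with the group mean and SD (n = 3), and each panel has its own linear axis. CYP71B17, CYP71B19 and CYP71A23 are near 0 in V3 buds at both times, CYP71B37 is highest in V3 buds at 5 d, and CYP71B26 is near 0 at 0 d in both zones.

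CYP89A5 (Aa_G253950) and CYP72A8 (Aa_G340190) were highest in V2 buds at 5 d. CYP89A5 had 3.89, 3.79 and 3.04 FPKM in V3 buds at 5 d and 12.7, 11.6 and 12.5 FPKM in V2 buds at 5 d (-1.86 ± 0.25, adjusted p 0.000647), against 5.42, 4.63 and 5.28 FPKM in V2 buds at 0 d. It rose in V2 (1.30 ± 0.25, adjusted p 0.00611), and in V3 the change was 0.34 ± 0.25 (adjusted p 0.363). CYP72A8 had 0.292, 0 and 0.521 FPKM in V3 buds at 5 d and 6.29, 7.04 and 4.94 FPKM in V2 buds at 5 d. It was listed at 0 counts in V3 buds at 5 d. On the counts it was at least 72.7-fold lower there than in V2 (adjusted p 0.00306), over the 2 usable V2 libraries. Its mean FPKM in V3 was not 0 but 0.0445 of that in V2, a smaller difference than that bound.

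CYP706A1 (Aa_G292470) had 28.5, 22 and 22.7 FPKM in V3 buds at 5 d and 75, 62 and 52.8 FPKM in V2 buds at 5 d. It was lower in V3 (-1.49 ± 0.51, adjusted p 0.0453), a call that ended without any of 10 libraries, all but V3 0 d replicates 1 and 2 (adjusted p 0.0517 to 0.127). V3 0 d replicate 1 had 3.57 FPKM, against 18.5 and 13.1 FPKM in the other V3 libraries at 0 d. CYP705A19 (Aa_G115060) had 23.8, 34.7 and 26.9 FPKM in V3 buds at 5 d and 13.6, 13.2 and 13.1 FPKM in V2 buds at 5 d, with 7.47 to 12.7 FPKM in the 0 d libraries of both zones. CYP705A19 rose in V3 (1.55 ± 0.17, adjusted p 0.00022) and was higher there than in V2 at 5 d (1.07 ± 0.17, adjusted p 0.00136). Its change exceeded that in V2 by 1.14 ± 0.24 (adjusted p 0.022), which ended without V2 5 d replicate 2 or V3 5 d replicate 2 or 3 (0.0511 to 0.0580).

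CYP81D8 (Aa_G767760) and CYP76C2 rose in both zones. CYP81D8 had 32.7, 31.5 and 30.3 FPKM in V3 buds at 5 d, against 6.17, 16.1 and 12.4 FPKM in V3 buds at 0 d (1.48 ± 0.31, adjusted p 0.00801), and in V2 buds 34.7, 33.1 and 28.9 FPKM at 5 d, against 15.6, 12.4 and 14.4 FPKM at 0 d (1.17 ± 0.31, adjusted p 0.0226). The V2 call ended without V2 0 d replicate 2 or 3 or V2 5 d replicate 1 or 2 (0.0531 to 0.0717). CYP76C2 had 31.1 ± 1.87 FPKM in V3 buds at 5 d, against 16.6 ± 0.757 FPKM in V3 buds at 0 d (0.91 ± 0.15, adjusted p 0.00243), and 32.5 ± 5.74 FPKM in V2 buds at 5 d, against 16.4 ± 2.74 FPKM in V2 buds at 0 d (1.02 ± 0.15, adjusted p 0.00178). The difference between the changes was 0.31 ± 0.43 for CYP81D8 (adjusted p 0.711) and -0.11 ± 0.22 for CYP76C2 (adjusted p 0.803).

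Of 10 loci for the electron donors and membrane anchors of P450s, 2 were listed. CB5-C, a cytochrome b5, had 346 ± 49.5 FPKM in V3 buds at 5 d, 108 ± 29.1 FPKM in V2 buds at 5 d, 16.1 ± 7.05 FPKM in V3 buds at 0 d and 51.5 ± 25.4 FPKM in V2 buds at 0 d (SD, n = 3 each). It rose in V3 (4.44, adjusted p 0.000317), was higher in V3 at 5 d (1.72, adjusted p 0.0212), and its change exceeded that in V2 (3.60, adjusted p 0.014). The other, MAPR3, a membrane steroid-binding protein, had 100.2 ± 0.778 FPKM in V3 buds at 5 d and 75.2 ± 6.6 FPKM in V2 buds at 5 d and was not called between the zones (0.16, adjusted p 0.304). In V3 buds MAPR3 rose by 0.50 on the log2 scale (adjusted p 0.0142), and its change in V2 had no count test.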

How the data were processed

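RNA was sequenced from 12 libraries of lateral buds as 150 bp single reads, from a directional kit and 1 µg of RNA with an integrity number above 8, per the labels' protocols. HISAT2, StringTie, TopHat and DESeq2 were used, per the submitters' processing notes; which versions and which build were used is not given in the sources used here. The authors deposited normalized counts (a signal, gene counts divided by size factors) of 19722 genes, and 4 tables of listed genes with FPKM, log2 fold changes and adjusted p-values, per the file headers; here the log2 fold changes and p-values of the authors are quoted only where named as theirs. Dividing each library by its smallest step gave whole reads for 100% of values within 0.05.

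A deposited 0 was left out where the FPKM was at least 1 or stood for at least 20 counts at the gene's usual counts per FPKM, or, without FPKM, where another library of the group held at least 20 counts: 17395 zeros in all, 5320 by FPKM and 12075 by the group. limma 3.58.1 (R 4.3.3) with an intensity trend was fitted to log2(normalized count + 1) over all 12 libraries with 1 mean per group, for genes with a mean normalized count of 10 or more and 2 or more usable libraries in every group compared. The pseudocount by itself makes fold changes of low genes smaller. Where counts were listed at 0 while the FPKM were above 0, fold changes on counts could still be larger than on FPKM. For CYP71A23 at 0 d the log2 fold change on counts was -6.35, while its mean FPKM in V3 was 0.199 of that in V2. A group listed at 0 was given a bound from a floor of 3 counts per library. An adjusted p printed beside such a bound tests the log2 fold change and not the bound, and libraries all at 0 add no spread to it. Alternatives were edgeR 4.0.16, DESeq2 1.42.0, TMM scaling, other pseudocounts and filters, the zeros as deposited, and each library left out; limma on log2(FPKM + 0.5) of listed genes was added after seeing the data. The limma p-values weigh a difference between groups against the spread of libraries within groups, pooled over the groups in the fit. Zone by time was fitted as an interaction.

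Named genes were all members in a hormone list, up to 3 called members of each other role list by smallest adjusted p, and the 3 largest changes per direction and comparison among called members in no list with a mean of at least 50 and groups that do not overlap; other members are said to lie outside that rule where they are described in detail. The members, lists and rule were chosen with earlier results of these data known, and the fatty acid and CYP71 groupings were made after values were seen. Sequences are not used here.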

Additional observations from a re-analysis of the deposited data

Results flagged for a closer look

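The change over time differed between the zones, by limma's test of the interaction, for 5 P450 genes. It exceeded that in V2 buds by 3.69 (log2) for CYP74B2, by 2.15 for CYP71B37, by 1.14 for CYP705A19 and by 1.13 for CYP98A3, and the difference was -1.03 for CYP734A1. Only the CYP98A3 call held whichever 1 of the 12 libraries was left out. V3 buds at 0 d enter each of these values, and V3 0 d replicate 1 was the lowest of its group in 29 of the 34 P450 genes; without that library 8 genes passed the test, 5 with a larger change in V3 and 3 with a more negative one. No group of 3 libraries was tested for a sample far from the others.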

How the results depend on the processing

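Of 1181 values of named genes under the alternatives other than leaving out a library, 1085 kept their side of the threshold. A further 51 lost the call and 45 gained it. None reversed direction where either fit called the gene. A change of direction where neither fit called the gene was not counted. Of 1194 values with 1 library left out, 1083 kept their side, 86 lost the call, 25 gained it and none reversed in that sense. The number of P450 genes called for V3 over V2 at 0 d (7) was 4 with a filter at a mean of 50, 3 with only the compared groups in the fit, 4 with the replicate block, 1 with edgeR, 12 with DESeq2 and 16 on FPKM, and 2 to 11 with a library left out. For V3 over V2 at 5 d (19) it was 11 with edgeR, and 13 to 20 with a library left out. For 5 d over 0 d in V2 (11) it was 7 with the zeros as deposited, 7 with edgeR and 21 on FPKM, and 7 to 16 with a library left out. For 5 d over 0 d in V3 (17) every alternative stayed within 1.5 times, and leaving out a library gave 14 to 18. For the interaction (5) it was 3 with the zeros as deposited, 2 with the replicate block, 1 with edgeR, 10 with DESeq2 and 14 on FPKM, and 1 to 8 with a library left out. edgeR and DESeq2 used the zeros as deposited; the cause of the other shifts was not tested. Same-numbered libraries did not deviate together: 1 of 18 pairs had a correlation above 0.1 (range -0.135 to 0.103), so the block is a number only, and it ended 9 calls of named genes. TMM scaling changed no call of a named gene. An interaction needs all 4 groups, so it was not fitted with fewer. Levels near 1 FPKM rest on few reads, and FPKM exist for listed genes only.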
